A study of Mus musculus with 9 samples.

Results

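Malat1 and Neat1 are long non-coding RNAs of the cell nucleus that are transcribed from neighbouring genes of mouse chromosome 19. All exon entries carrying either name were taken from the deposited table, which gave 14 entries (7 of Malat1 and 7 of Neat1) of 210966 distinct exon entries, and 2 of 33732 gene names. The data are RIP-seq, in which RNA bound to a protein is pulled down with an antibody and sequenced. HuR, an RNA-binding protein encoded by Elavl1, was pulled down in 3 libraries, control IgG was used in another 3, and 3 Input libraries held the RNA of the lysate. The stated aim of the series was to identify HuR target RNAs of the mouse liver. Every library came from whole, healthy liver of wild-type C57BL/6 mice aged 8 weeks, with no allele or treatment that sets the groups apart. According to the labels, each pull-down was done in native conditions on the lysate of a single liver, and the libraries were prepared from total RNA for Ion sequencing. The labels do not say whether an IgG and a HuR pull-down shared a liver. Input has 1 deposited value per exon and therefore no replicates.

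Malat1 gathers in nuclear speckles, bodies rich in splicing factors, and is among the most abundant long non-coding RNAs of many tissues. Neat1 is the RNA scaffold of paraspeckles, and it is made as a short isoform and a long isoform that start at the same site, of which the long one is needed to build the paraspeckle. Neither RNA ends in a regular poly(A) tail when full length: RNase P cuts both ahead of a tRNA-like element, and an A-rich tract folded into a triple helix protects the new end. HuR is mostly nuclear, shuttles to the cytoplasm, and binds U-rich and AU-rich RNA.

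In GENCODE M21, annotated on GRCm38 (the assembly also called mm10), both genes are intergenic non-coding RNAs on the minus strand and each has an exon that spans the full gene. Malat1 lies at chr19:5795690-5802672 and Neat1 at chr19:5824708-5845478, so the full exons are 6983 and 20771 bases long. The shorter entries lie inside the full exons, and bases are counted below from the 5′ end of each. A run of 7 T bases (TTTTTTT, the letters of the RNA strand written as DNA) was the first of 4 motifs searched. The second was TTTATTT. The third, ATTTA, is the core of the AU-rich element, and it also lies within the fourth, TATTTAT. Capitals in the next 4 sequences (transcripts of GENCODE M21, minus strand, GRCm38) mark matches of any of them. The Neat1 window of bases 301 to 600 is shown because it lies largely in the stretch with the largest HuR RIP densities of Neat1 and holds the only match of that stretch. The first window of Malat1 shows its 5′ end, and the other windows hold the most matches of each RNA. The places are chr19:5802373-5802672 and chr19:5799073-5799372 for Malat1, and chr19:5844879-5845178 and chr19:5834679-5834978 for Neat1.
Malat1 bases 1 to 300: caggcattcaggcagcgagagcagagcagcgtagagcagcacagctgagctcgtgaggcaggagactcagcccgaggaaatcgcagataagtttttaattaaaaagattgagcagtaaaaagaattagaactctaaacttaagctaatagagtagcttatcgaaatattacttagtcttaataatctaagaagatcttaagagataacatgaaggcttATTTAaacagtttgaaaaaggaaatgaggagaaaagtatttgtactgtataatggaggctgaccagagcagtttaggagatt
Malat1 bases 3301 to 3600: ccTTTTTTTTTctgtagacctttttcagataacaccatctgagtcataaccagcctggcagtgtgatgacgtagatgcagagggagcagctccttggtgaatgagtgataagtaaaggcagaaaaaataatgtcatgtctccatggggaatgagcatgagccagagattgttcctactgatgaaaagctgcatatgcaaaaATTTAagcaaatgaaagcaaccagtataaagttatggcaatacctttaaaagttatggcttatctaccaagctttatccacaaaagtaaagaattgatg
Neat1 bases 301 to 600: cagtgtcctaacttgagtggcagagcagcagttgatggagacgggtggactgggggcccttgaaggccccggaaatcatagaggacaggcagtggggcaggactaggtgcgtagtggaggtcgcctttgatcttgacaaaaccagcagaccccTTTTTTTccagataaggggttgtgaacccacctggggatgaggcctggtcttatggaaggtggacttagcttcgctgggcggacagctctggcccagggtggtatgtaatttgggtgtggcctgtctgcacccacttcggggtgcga
Neat1 bases 10501 to 10800: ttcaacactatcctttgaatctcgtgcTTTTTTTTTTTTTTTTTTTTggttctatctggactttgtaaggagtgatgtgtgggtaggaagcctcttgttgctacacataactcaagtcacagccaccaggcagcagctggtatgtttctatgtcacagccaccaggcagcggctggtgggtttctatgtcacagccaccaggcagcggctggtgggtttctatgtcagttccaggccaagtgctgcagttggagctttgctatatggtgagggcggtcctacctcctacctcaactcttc

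The 3′ ends of the long RNAs are shown because U-rich stretches and an A-rich tract there are known to be alike in both RNAs. The longest string shared by the 100-base ends printed here was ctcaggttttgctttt, of 16 bases. Of 5451 transcripts searched (the longest of each tested gene found in the annotation), 2 held it, those of Malat1 and Neat1. The tract in capitals, AAAAAGCAAAA, is the longest string of the last 20 bases of Neat1 that is also in the last 400 bases of Malat1, and 54 of the transcripts held it. In Neat1 the tract ends at the last annotated base (chr19:5824708-5824807 is shown), and in Malat1 292 bases before the end of the annotated exon (chr19:5795982-5796081), which runs on past the tRNA-like part.
Malat1 bases 6592 to 6691: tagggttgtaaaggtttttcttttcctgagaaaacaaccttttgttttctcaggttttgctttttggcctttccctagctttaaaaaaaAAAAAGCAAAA
Neat1 bases 20672 to 20771: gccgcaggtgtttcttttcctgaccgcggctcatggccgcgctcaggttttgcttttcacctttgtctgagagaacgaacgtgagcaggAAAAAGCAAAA

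The library sizes behind the values were 26.3 to 26.9 M reads in HuR RIP and 15.9 to 28.8 M in IgG RIP (M, mega), with IgG 1 the shallowest. RPKM is the number of reads per kilobase of exon, scaled to library depth. The median of log2(RPKM + 0.5) over the tested genes was 1.03 to 1.33 in the HuR libraries, 0.87 in IgG 1, and -0.17 and -0.33 in IgG 2 and 3. As a result, the median tested gene had a log2 fold change of 0.92 for HuR over IgG, and the values of Malat1 and Neat1 are also given relative to it. HuR 3 and IgG 1 stood apart: small nuclear RNAs took 45.9% of listed exon reads in HuR 3, and small nucleolar RNAs took 18.4% in IgG 1. Summed markers of hepatocytes, the main cells of liver, were 799 to 873 RPKM in HuR RIP and 274 to 698 RPKM in IgG RIP, with all 6 markers tested. The 10 Kupffer cell markers summed to 12.7 to 21.2 RPKM in HuR RIP and 3.72 to 35.2 in IgG RIP. Those of sinusoidal endothelium (8) summed to 7.53 to 13.6 against 1.10 to 5.69, of stellate cells (6) to 2.16 to 8.90 against 0.575 to 5.62, and of cholangiocytes (5) to 3.78 to 13.1 against 0.0343 to 0.662. Erythroid markers (5) summed to 64.5 to 172 against 98.7 to 234, and lymphocyte markers (6, of which 1 was at 0 in all 6 RIP libraries) to 0.443 to 2.39 against 0 to 0.454. The part of these marker and library differences in the Malat1 and Neat1 values was not tested. In pull-downs from whole tissue, the RNA that each pull-down recovered, the number of cells of a type and the RNA per cell cannot be told apart. The column headers are marked 1M, 2M and 3F for HuR 1, 2 and 3 and likewise for IgG 1, 2 and 3, but the authors' fold columns are numbered with HuR 2 and HuR 3 exchanged. Xist, the RNA of the inactive X chromosome, was at 10.2 RPKM in HuR 2 and 0.463 RPKM in HuR 3, while Ddx3y, a gene of the Y chromosome, was at 0.0188 and 2.04 RPKM. The headers were followed, so values given for HuR 2 and HuR 3 could belong to the other library. Group values do not depend on this.

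Malat1 was abundant in HuR RIP, and all 3 HuR libraries lay above all 3 IgG libraries, but the difference did not pass the test across all genes. HuR 1, 2 and 3 gave 355, 514 and 154 RPKM. IgG 1, 2 and 3 gave 97.7, 19.2 and 30.4 RPKM. These levels rest on 28874 to 94409 reads in HuR RIP and 3575 to 10814 in IgG RIP. HuR 2 was the highest library and HuR 3 the lowest of its group, and IgG 1 stood above the other IgG libraries. The mean RPKM was 341 ± 180 for HuR and 49.1 ± 42.4 for IgG (SD, n = 3 each). The log2 fold change on log2(RPKM + 0.5) was 2.96 (SE 1.09, limma adjusted p = 0.0959 over 5510 genes). By this test 44 genes (0.799%) were called, 37 of them higher (0.672%), and Malat1 was not among them. Under TMM-like scaling 50 genes were called higher and 342 lower, and with libraries centred at their medians 1 and 18. An absence of overlap like that of Malat1 was seen for 31.3% of tested genes. The fold change itself stood above that of most genes: 98.2% of them were at or below it and 101 were above, and relative to the median gene it was 2.04.

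Malat1 was also above Input in every HuR library. Input was at 17.5 RPKM, so that HuR 1, 2 and 3 were 20.3, 29.4 and 8.79 times Input, and IgG 1, 2 and 3 were 5.59, 1.10 and 1.74 times Input. For comparison, all HuR libraries were above Input for 68.9% of tested genes, and all IgG libraries for 20.7%. IgG 2 and IgG 3 were thus near Input for Malat1, and IgG 1 was not. Among the long non-coding RNAs, as GENCODE classes them and without models that cover ribosomal repeats, Malat1 ranked 4, 3 and 3 by RPKM in HuR 1, 2 and 3. It ranked 16, 14 and 11 in IgG 1, 2 and 3, and 7 in Input. The RNAs above it in all 3 HuR libraries were Rmrp, the RNA of the RNase MRP enzyme, and Gm28872, a predicted gene.

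Neat1 was lower than Malat1 in every library, and its HuR and IgG levels overlapped. HuR 1, 2 and 3 gave 26.9, 19.8 and 10.7 RPKM. IgG 1, 2 and 3 gave 19.9, 2.64 and 4.86 RPKM, and Input 1.55 RPKM. IgG 1 reached the level of HuR 2, while IgG 2 and 3 lay below all HuR libraries. The means were 19.1 ± 8.10 RPKM and 9.13 ± 9.38 RPKM (SD, n = 3 each), from 5993 to 14863 reads in HuR RIP and 1462 to 6548 in IgG RIP. The log2 fold change of 1.40 (SE 0.94, limma adjusted p = 0.292) was 0.48 relative to the median gene, and it was -0.13 under TMM-like scaling. Relative to Input, Neat1 was at 17.4, 12.8 and 6.93 times in the HuR libraries and at 12.9, 1.71 and 3.14 times in the IgG libraries. It ranked 19, 27 and 28 among long non-coding RNAs in HuR 1, 2 and 3, 33, 36 and 40 in IgG 1, 2 and 3, and 45 in Input.

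**Figure D1:**
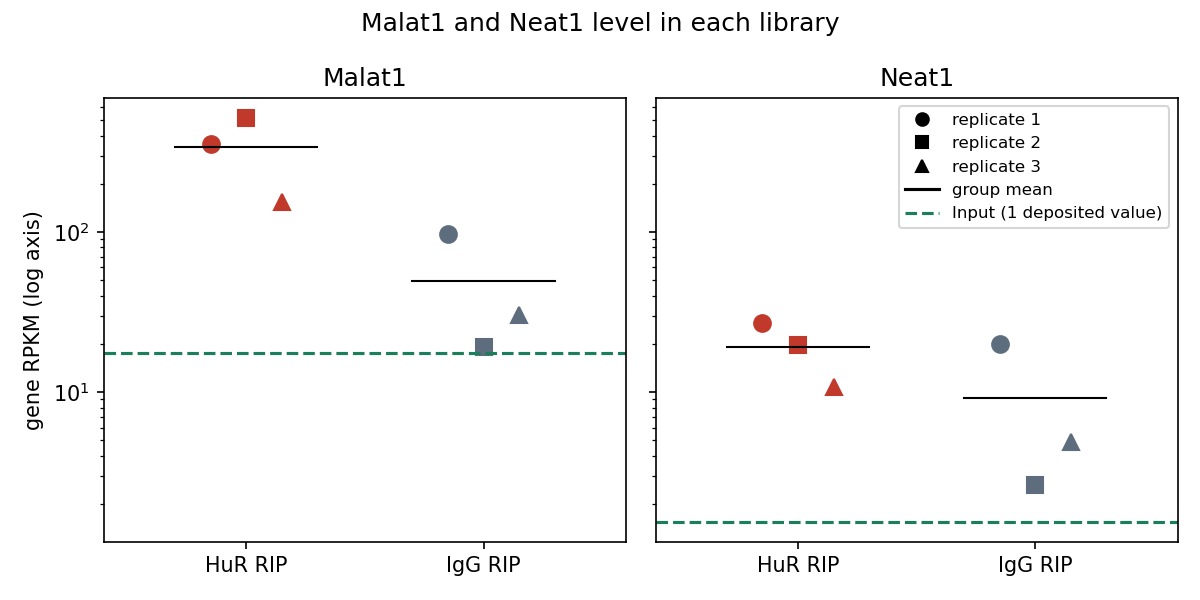
Gene level of Malat1 (left) and Neat1 (right) in RPKM on a log axis, 1 point per library, with the mean of each group as a bar and the deposited Input value as a dashed line. The Malat1 HuR libraries (154 to 514) lie above the IgG libraries (19.2 to 97.7), while for Neat1 IgG 1 (19.9) lies among the HuR libraries (10.7 to 26.9).

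The outcome of the test depended on which libraries and genes entered it. Without IgG 1, the log2 fold change of Malat1 was 3.63 (limma adjusted p = 0.0228) and that of Neat1 2.17 (adjusted p = 0.0421), and 38.6% of the genes then tested were called higher. Without both HuR 3 and IgG 1, Malat1 was at 4.12 (adjusted p = 0.00219) and Neat1 at 2.52 (adjusted p = 0.0765), with 11.2% of genes called higher. With only protein-coding and long non-coding genes, Malat1 kept its log2 fold change of 2.96 at an adjusted p of 0.0440, with 7.27% called higher. With the libraries centred at their medians, Malat1 was at 1.86 (adjusted p = 0.203) and Neat1 at 0.29 (adjusted p = 0.851).

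A ratio within a library is free of the scaling between libraries. The Malat1 level divided by the Neat1 level was 13.2, 26.0 and 14.3 in HuR 1, 2 and 3, and 4.91, 7.27 and 6.25 in IgG 1, 2 and 3. All HuR libraries were above all IgG libraries, and Input, at 11.3, lay between the groups. The groups differed by 2.80-fold on average (log2 difference 1.49, exact two-sided permutation test, p = 0.1, the smallest that 3 against 3 can give). Adjusted over the 6 values tested in this way, this p is 0.15. The difference is larger than the spread between replicates (SD 0.53 in HuR RIP and 0.29 in IgG RIP on the log2 scale), but the exact test cannot reach the 0.05 threshold with 3 against 3 libraries.

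A larger share of the Neat1 reads lay at its 5′ end in HuR RIP than in IgG RIP or Input. This is described for bases 3 to 563, a stretch of 561 bases covered by several nested entries. The stretch was singled out after its values were seen, so its values are given without p-values. Its share of reads and its density ratio are nonetheless among the 6 values over which the exact permutation tests were adjusted. The adjusted p-values of those tests therefore rest partly on this stretch. Reads were split between overlapping entries, and the full exon's part was estimated from the nested entries, assuming even density within the stretch. So estimated, this stretch reached 556, 407 and 219 RPKM in HuR 1, 2 and 3. The densities and shares of stretches given below are estimates of the same kind. IgG 1, 2 and 3 had 115, 25.6 and 60.4 RPKM there, and Input 10.6 RPKM. All HuR libraries were above all IgG libraries here, unlike for the gene as a whole. The stretch was 52.5, 38.4 and 20.6 times Input in the HuR libraries, and 10.8, 2.42 and 5.70 times Input in the IgG libraries.

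The stretch makes up 2.70% of the bases of Neat1 but held 51.8, 51.3 and 52.1% of its reads in HuR 1, 2 and 3. In IgG 1, 2 and 3 it held 15.2, 25.5 and 33.4%, and in Input 17.7%. The HuR libraries differed among themselves by less than 1 percentage point although their Neat1 levels differed, and the IgG libraries were spread more widely. The means of 51.7 ± 0.41% and 24.7 ± 9.15% (SD, n = 3 each) were 27.0 percentage points apart. Without HuR 3 and IgG 1 they were 22.0 percentage points apart.

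The groups overlapped in most of the length of Neat1. The 17758 bases that only the full exon covers are nearly all specific to the long isoform, except for 159 bases inside the short isoform (bases 564 to 720 and the first 2). They had densities of 6.90, 6.57 and 4.72 RPKM for HuR 1, 2 and 3, of 14.2, 1.63 and 2.22 RPKM for IgG 1, 2 and 3, and of 1.11 RPKM for Input. IgG 1 was the highest of all libraries here, and IgG 2 and 3 were below all HuR libraries. The rest of the short isoform, bases 721 to 3172, was intermediate, at 68.6, 41.0 and 11.8 RPKM against 43.7, 5.34 and 11.5 RPKM, and the groups overlapped. The density of the 5′ stretch over that of the bases under the full exon alone was 80.6, 62.0 and 46.3 in HuR 1, 2 and 3, and 8.06, 15.8 and 27.3 in IgG 1, 2 and 3, with Input at 9.51. The groups did not overlap, and were 4.05-fold apart on average (log2 difference 2.02). For the 5′ stretch and bases 721 to 3172 together, which is the short-isoform region without bases 564 to 720, the share of Neat1 reads was 79.7, 73.8 and 64.4% in HuR RIP, 40.4, 48.8 and 61.2% in IgG RIP, and 41.0% in Input. HuR 3 and IgG 3 nearly met, and the difference of 22.5 percentage points had a p of 0.1 in the exact permutation test (two-sided, 0.15 adjusted over the 6 values), a comparison that includes the 5′ stretch. Reads in this region come from both isoforms, which cannot be told apart there.

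**Figure D2:**
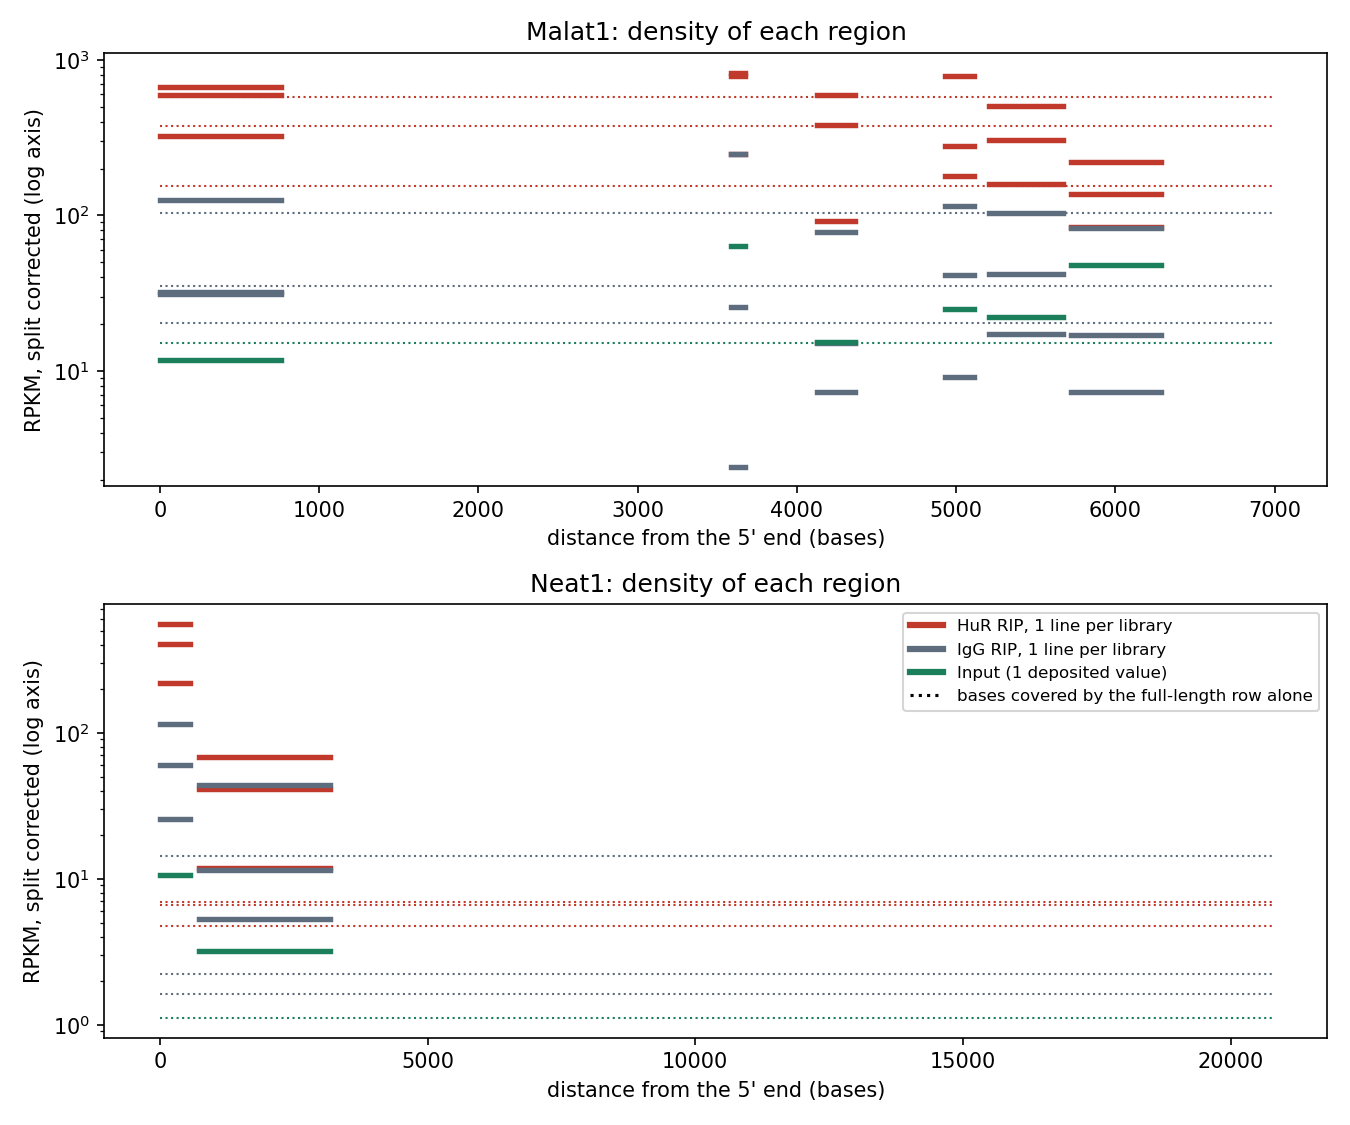
Read density along Malat1 (top) and Neat1 (bottom) in RPKM on a log axis against the distance from the 5′ end in bases. Each thick line is the estimated density of a stretch with nested entries in 1 library or in Input. Each dotted line is the estimated density of the bases covered by the full exon alone. The 5′ stretch of Neat1 is at 219 to 556 in HuR RIP and 25.6 to 115 in IgG RIP, and the dotted lines of the groups overlap.

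**Figure D3:**
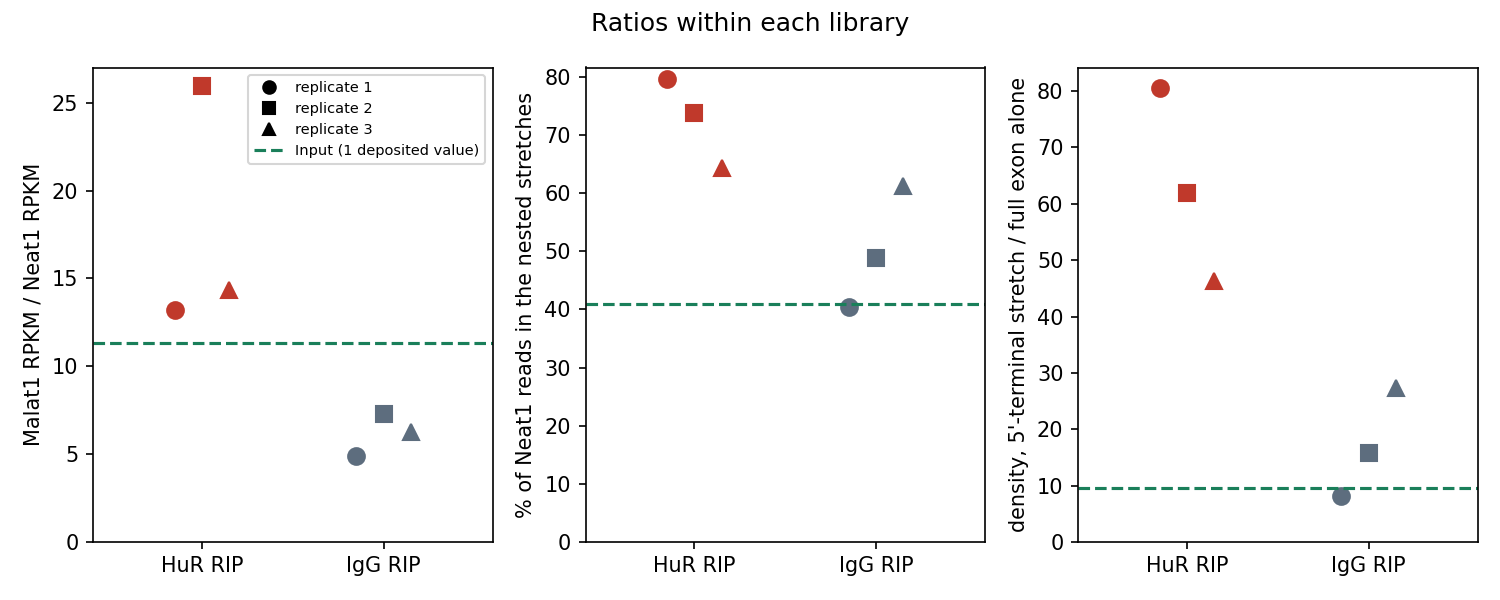
Ratios within each library: Malat1 over Neat1 RPKM, the percentage of Neat1 reads in bases 3 to 563 and 721 to 3172, and the density of the 5′ stretch of Neat1 over that of the bases under the full exon alone, 1 point per library with the deposited Input value as a dashed line. The HuR points lie above the IgG points in each panel, and come closest in the middle one (64.4% in HuR 3 and 61.2% in IgG 3).

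Malat1 was covered more evenly. Its 5′ stretch, bases 2 to 757, had densities of 669, 596 and 324 RPKM for HuR 1, 2 and 3, of 126, 32.2 and 31.0 RPKM for IgG 1, 2 and 3, and of 11.8 RPKM for Input. The 4691 bases under the full exon alone had 375, 576 and 154 RPKM with HuR, 104, 20.3 and 35.3 RPKM with IgG, and 15.2 RPKM as Input. Both stretches separated the groups without overlap. The ratio of the first to the second was 1.79, 1.03 and 2.11 in HuR RIP against 1.21, 1.59 and 0.879 in IgG RIP, so the groups overlapped (exact permutation test, p = 0.4, adjusted 0.48). Reads from the 5′ stretch of Malat1 are shared in the table with Gm37376, an unconfirmed gene model on the opposite strand. The counts were not separated by strand here, so reads of the RNAs cannot be told apart.

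The nested entry of Malat1 nearest its 3′ end, bases 5721 to 6284, differed between Input and the pull-downs. In Input it held 20.6% of the Malat1 reads, in HuR 1, 2 and 3 it held 2.88, 3.22 and 4.10%, and in IgG 1, 2 and 3 it held 6.30, 6.70 and 1.84%. Its density was 138, 221 and 84.6 RPKM in the HuR libraries and 47.9 RPKM in Input, which is 2.87, 4.61 and 1.76 times Input. At the 5′ stretch the HuR libraries were at 56.6, 50.4 and 27.5 times Input. IgG 1, 2 and 3 were at 1.72, 0.354 and 0.153 times Input in the entry near the 3′ end, and at 10.6, 2.73 and 2.63 times at the 5′ stretch. The ratio to Input was therefore lower in this entry than at the 5′ stretch in all 3 HuR libraries. The same held in all 3 IgG libraries, so it was not particular to HuR RIP. The nearest entry on its 5′ side, bases 5209 to 5669, was at 13.7, 22.7 and 7.09 times Input in HuR 1, 2 and 3. In IgG 1, 2 and 3 it was at 4.66, 0.776 and 1.88 times Input. The bases between the entry of bases 5721 to 6284 and the 3′ end have no separate value, so a trend along Malat1 is not shown. As Input has 1 value, these ratios were not tested. Between HuR and IgG RIP, the density of bases 5721 to 6284 relative to the full exon alone overlapped (exact permutation test, p = 0.8).

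At the level of single exon entries, all 14 entries passed the filter on low values and none was called by limma over 13400 exons, in which 0% of exons were called (2724 exons, or 20.3%, were higher at an unadjusted p under 0.05). The 7 Malat1 entries had log2 fold changes of 2.58 to 5.48 (SE 0.97 to 1.56, limma adjusted p = 0.126 to 0.185), beside a median of 0.87 over all exons. All 7 had HuR libraries above all IgG libraries, which held for 26.7% of exons. All 14 entries of both RNAs were above Input in every HuR library, which held for 49.1% of exons. Entries of the same gene overlap and share bases, so counts of entries here and below are not counts of independent exons. The largest value was that of Malat1 bases 707 to 757, an entry of 51 bases that was at 465, 322 and 335 RPKM with HuR against 60.0, 18.2 and 0 RPKM with IgG. As IgG 3 is listed at 0 there, the fold change depends on the pseudocount.

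The 7 Neat1 entries ranged more widely, from 0.42 to 3.78 (limma adjusted p = 0.126 to 0.818). The largest value was that of bases 721 to 901, outside the 5′ stretch. This entry was at 52.5, 44.4 and 11.0 RPKM with HuR against 19.5, 0.553 and 0 RPKM with IgG, so its fold change also depends on the pseudocount. The 3 of 7 entries that did not overlap between groups, beside 26.7% of all exons, lie in the 5′ stretch: bases 3 to 554, 220 to 272 and 513 to 554. Their log2 fold changes were 2.61, 1.54 and 3.61. Bases 3 to 554 were at 217, 150 and 84.9 RPKM with HuR against 40.3, 10.8 and 26.1 RPKM with IgG (log2 fold change 2.61, SE 0.96). The full exon was at 16.0, 12.6 and 7.25 RPKM against 15.7, 1.97 and 3.20 RPKM (log2 fold change 1.17, SE 1.04), and bases 1045 to 1798 had the lowest value, 0.42. In the authors' deposited table, the q-values of the 14 entries were 0.541 to 0.774 and the lowest p-value, that of Malat1 bases 2 to 435, was 0.0136. Without HuR 2, 1 of the 14 entries was called (0.703% of exons were called higher), and without both HuR 3 and IgG 1 8 were called (1.97%).

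**Figure D4:**
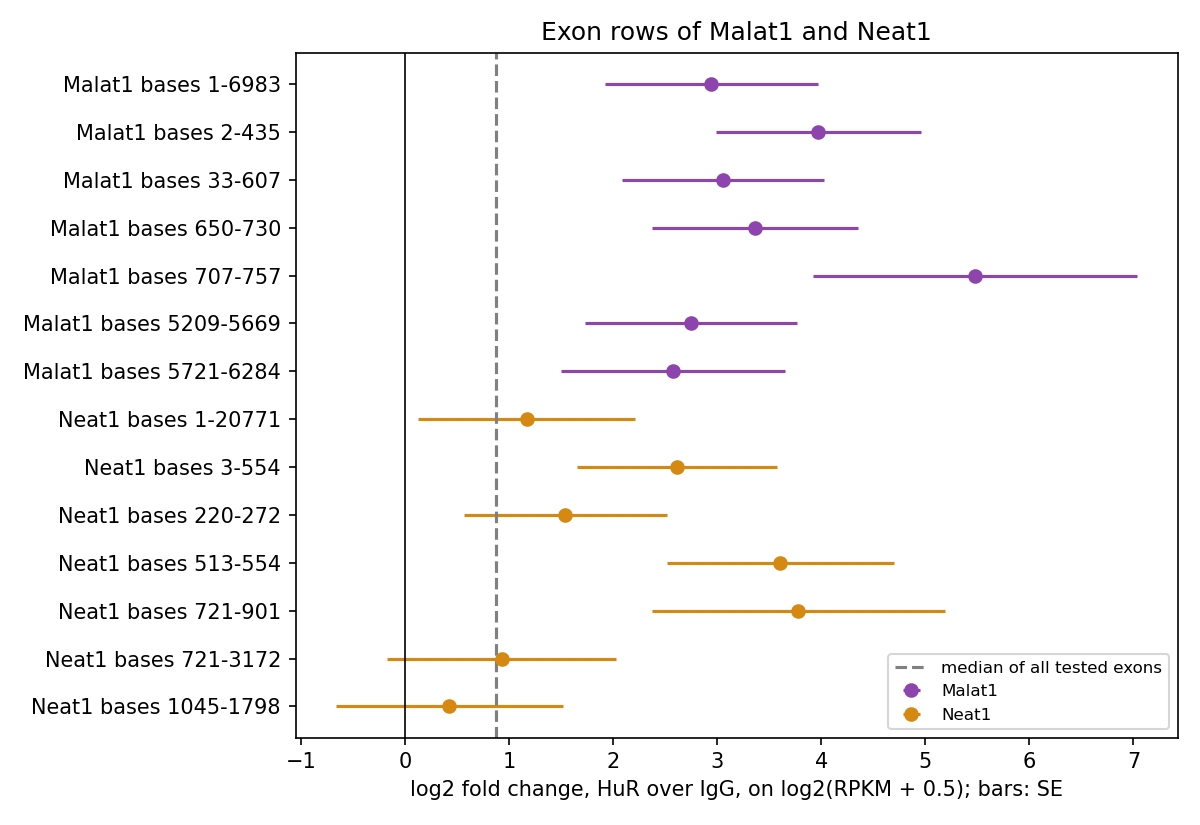
Log2 fold change of HuR over IgG RIP for each exon entry of Malat1 and Neat1, with bases counted from the 5′ end, points for the estimate, bars for its SE and a dashed line at the median of all tested exons. The 7 Malat1 entries lie at 2.58 to 5.48, and those of Neat1 at 0.42 to 3.78.

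Motifs that HuR is known to favour were counted in both RNAs, and their part in the HuR values was not tested. TTTTTTT was present in 26.1% of 23 windows of 300 bases of Malat1 and in 17.4% of 69 windows of Neat1, beside 8.06% of 49419 windows of all tested genes. TTTATTT was present in 4.35% and 10.1% of the windows, beside 6.61%, and ATTTA in 34.8% and 21.7%, beside 23.5%. TATTTAT was in 0% of these windows of either RNA, beside 3.50%, and its 1 match in Malat1 is not inside any of them. Of the 52 matches of TTTTTTT in Neat1, which overlap within long runs of T, 51 lay in bases 3173 to 20771, which only the long isoform has, and 1 in the 5′ stretch, where it is in capitals in the window of bases 301 to 600. Per kilobase this is 2.90 and 1.78 matches of TTTTTTT, beside 1.12 over all tested genes. As 1 long run gives many matches, these densities are not counts of runs. By windows, TTTTTTT was present in 15.5% of the 58 windows of bases 3173 to 20771. The 5′ stretch was 20.3% T, and Neat1 as a whole 30.0%. The 5′ stretch of Malat1 held 0 matches of TTTTTTT and 2 of ATTTA. A match describes the letters only.

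The neighbours of the genes were low. Of 22 annotated genes within 100 kb, 21 were in the table and 10 were tested. The highest protein-coding level in any RIP library was 3.89 RPKM, for Ehbp1l1 in HuR 2, while Frmd8, the coding gene that lies next to Neat1, was at 0 to 0.266 RPKM. Short models that lie on the members and share their reads had higher levels. Gm27694 (log2 fold change 4.26) and Gm37376 (3.11) lie on Malat1, and Gm28006 (3.57), Gm27505 (4.28) and Gm27533 (2.76) lie on Neat1. None of these 5 passed the threshold (limma adjusted p = 0.0707 to 0.133). Gm20417, which is not among the 22 genes, also has entries on Malat1, at bases 4124 to 4366 and 4930 to 5111. Gene levels and read numbers leave out reads split to such models, while the densities and shares of stretches include them. In HuR 1, Malat1 had 65978 reads under its own name and 71752 with those of the models. Gm27702, a small RNA model 1 base beyond the 3′ end of Neat1, was high in a single library, with 47.6, 1.02 and 0 RPKM for HuR 1, 2 and 3 and 4.50, 0 and 4.34 RPKM for IgG 1, 2 and 3.

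Among 466 well measured genes, those most like Malat1 across the 6 RIP libraries were Hmgcs1, Tmem198b, Rgn and Insig1. Likeness was the root mean square difference of log2 values centred on each gene's mean. Genes with predicted (Gm number), Rik or pseudogene names and small structural RNA genes were left out beforehand, and with them many non-coding RNAs. Hmgcs1, an enzyme of cholesterol synthesis, differed from Malat1 by 0.34, beside a median of 1.04 over the 466 genes. It was at 20.9, 29.1 and 16.4 RPKM with HuR against 7.01, 1.33 and 2.33 RPKM with IgG. Insig1, a regulator of the same pathway, was at 43.8, 49.8 and 19.3 RPKM against 17.2, 1.78 and 6.81 RPKM. Rgn, the gene of regucalcin, was at 38.3, 37.7 and 22.4 RPKM against 9.77, 2.78 and 4.71 RPKM. Those most like Neat1 were Edem1, which acts in the disposal of misfolded proteins of the endoplasmic reticulum, Oaf, Tmbim6 and Nectin1, with differences of 0.26 to 0.33. Edem1 was at 8.61, 7.32 and 4.93 RPKM with HuR against 8.57, 1.32 and 1.54 RPKM with IgG, with IgG 1 at the level of HuR 1. Neat1 was only the 141st gene in likeness to Malat1, with a difference of 0.85.

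The genes of the bodies in which the RNAs reside were measured at low levels and none was called. Of 36 paraspeckle protein genes 13 were tested, with 0 called in either direction, a median log2 fold change of 1.17 beside 0.92 over all genes, and 7 without overlap between groups (beside 31.3% of all tested genes). Sfpq, whose protein is a core paraspeckle component, was at 4.29, 2.04 and 2.29 RPKM with HuR against 1.57, 0.401 and 0.214 RPKM with IgG (log2 fold change 1.56, limma adjusted p = 0.154). Taf15 was the only gene of all lists above Malat1, at 3.69, and this rests on 80.3 RPKM in HuR 3, beside 1.12 and 5.58 RPKM in HuR 1 and 2. Of 30 nuclear speckle protein genes 21 were tested, with 0 called, a median of 1.33 and 11 without overlap, beside the same 0.92 and 31.3%. The splicing factor gene Srsf5 was at 10.4, 10.9 and 3.63 RPKM against 8.60, 0.528 and 0.826 RPKM, and Ddx39b, an RNA helicase gene, had the lowest value of the list, -1.41.

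The other lists likewise had 0 genes called in either direction. Of 31 other long non-coding RNAs 7 were tested, with a median log2 fold change of 1.66 (0.92 over all genes) and 6 without overlap (31.3% of all genes), and none was as high as Malat1. Of 5 mRNAs known to be kept in liver nuclei 4 were tested (median 0.93), and the highest was Slc7a2, an amino acid transporter gene, at 24.4, 33.2 and 27.8 RPKM against 7.84, 2.14 and 4.58 RPKM (log2 fold change 2.58, limma adjusted p = 0.0844). All 17 mRNAs of abundant secreted proteins were tested, with a median of 0.68, and 4 of them were above Neat1. Alb, the mRNA of albumin, was at 430 to 444 RPKM in HuR RIP, so that Malat1 exceeded it in HuR 2 only. Of 15 genes of the HuR family and other AU-rich element binding proteins found in the data 10 were tested, with a median of 1.63. Zfp36l1, whose protein promotes decay of AU-rich mRNAs, was at 5.98, 7.74 and 5.04 RPKM against 1.20, 0.950 and 1.16 RPKM (log2 fold change 2.06, adjusted p = 0.0945). Of the 13 genes listed for 3′ end processing and stability of both RNAs only Rpph1, the RNA part of RNase P, was tested, with a log2 fold change of 1.39.

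**Figure D5:**
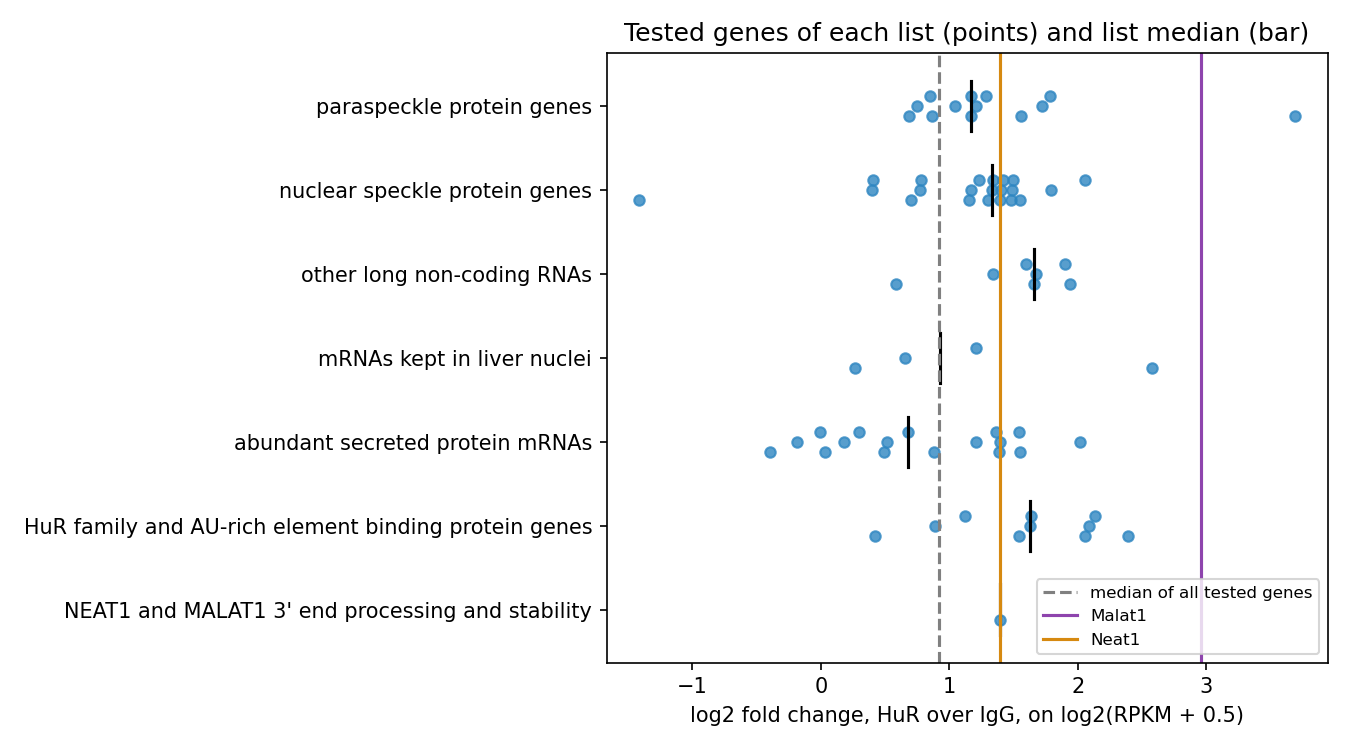
Log2 fold change of HuR over IgG RIP for the tested genes of each list (points), with list medians as short bars, the median of all tested genes as a dashed line, and Malat1 and Neat1 as solid lines. Only Taf15 (3.69) lies to the right of Malat1 (2.96), and no gene shown was called.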

How the data were processed

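The members and gene lists were chosen with earlier results of these data known. Bowtie2, featureCounts and the build mm10 are named, per the submitters' processing notes (versions not given in the sources used here). Deposited values are RPKM per exon and the authors' log2 fold values over Input, p-values and q-values, per the file headers. Decimal marks missing from its values of at least 1 were restored from their digits and the 6 fold columns: of 138826 distinct lines 138761 matched all 6 and 0 had more than 1 reading. The values show that reads were split between overlapping exons, regardless of strand. RPKM was therefore multiplied by length and summed, and for genes divided by merged length. For stretches, the nested entries were summed, and the full exon's part was estimated by assuming equal splits and even density within the stretch. The bases under the full exon alone were given what then remained of the full exon. Short nested stretches are overestimated, as reads cross their edges. Library sizes came from the step between values (85.7 to 89.6% of gene sums whole within 0.05 read); Input depth is unknown.

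Genes and exons reaching 0.5 RPKM in 3 of 6 RIP libraries were tested with limma 3.58.1 (R 4.3.3, trend and robust) on log2(RPKM + 0.5), two-sided, Benjamini-Hochberg threshold 0.05; the code was tested on simulated data. Single values had exact permutation tests (Python 3.11.15). Fold changes on this scale understate the change of low genes. Genes named are both members, up to 4 per list by mean level, the 4 most alike by difference (mean of 5 RPKM or more), list extremes seen afterwards, and genes within 100 kb. The motif background used the longest transcript of each gene in place of merged exons. Of the exon positions, 99.3% were found in GENCODE M21. Alternatives were other pseudocounts, filters, scalings, a replicate block, no trend, fewer libraries and fewer genes. P-values measure the spread between these libraries.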

Additional observations from a re-analysis of the deposited data

How the results depend on the processing

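Input had no replicates, and the exact tests of 3 against 3 libraries cannot go below p = 0.1, so values rather than calls carry the comparison. Over the 6 settings that leave out 1 library, the log2 fold change ranged from 2.47 to 3.63 for Malat1 and from 0.82 to 2.17 for Neat1. Leaving out IgG 1 took both past the threshold. Without HuR 3 and IgG 1, a setting chosen after seeing the data, Malat1 was at 4.12, and with coding and long non-coding genes only at 2.96, both past the threshold. TMM-like scaling turned Neat1 to -0.13; the cause was not tested.

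The number of genes called higher (37) was 3 with a pseudocount of 1, 0 with no filter, 145 with a filter at RPKM 1, 1 with centred libraries or the highest exon of each gene, 5 with quantile normalization, 4 with no trend, 294 without HuR 3 and IgG 1, 340 with coding and long non-coding genes, and 0 to 1761 leaving out 1 library. The number called lower (7) was 1 with a pseudocount of 1, 0 with no filter, 21 with a filter at RPKM 1, 18 with centred libraries, 0 with the highest exon, 4 with quantile normalization, 1 with no trend, 21 without HuR 3 and IgG 1, 9 with coding and long non-coding genes, and 0 to 30 leaving out 1 library. TMM-like scaling called 50 higher and 342 lower. Exon entries of Malat1 and Neat1 called numbered 0 to 1 leaving out 1 library, and 8 without HuR 3 and IgG 1.

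With the replicate block, the adjusted p was 0.0671 for Malat1 (log2 fold change 2.96) and 0.229 for Neat1 (1.40), and 0 genes were called in either direction, also with HuR 2 and HuR 3 exchanged. Deviations of same-numbered libraries correlated at 0.138, 0.117 and 0.086, not all above 0.1, so the numbers were not taken to pair the libraries. Every library correlated best with its own number, and the headers mark same-numbered libraries alike (M, M and F).

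Of 262 values for single entries and nested stretches, 243 kept their direction and side of the threshold, 9 passed it and 10 reversed. For Neat1, the full exon was at -0.0083 with centred libraries, bases 721 to 3172 at -0.25 (centred) and -0.20 (TMM-like), and bases 1045 to 1798 at -0.75 (centred), -0.76 (TMM-like), -0.32 (quantile) and -0.27 to 1.08 leaving out 1 library. The nested entry of Malat1 nearest the 3′ end, relative to the full exon alone, differed by -0.28 on the log2 scale and by -0.93 to 0.071 leaving out 1 library. The Malat1 to Neat1 ratio and the Neat1 shares and ratio at the 5′ end kept their direction in every setting run.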
